A study of Mus musculus with 9 samples.

Results

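The 40 probesets described here measure 38 protein-coding genes of mouse Chromosome 12 that start from 34.0 to below 54.6 Mb in the RefSeq gene table of assembly GRCm38.p6, between *Hdac9* and the segment to which airway hyperresponsiveness was mapped. They were chosen by position among the 41345 probesets of the array, each with 1 gene symbol in the platform's annotation. *Agr2* and *Agr3*, which also lie there, were left out, and the choice was made with earlier results of these data known. Of the 44 protein-coding genes that remained in the interval, 6 had no probeset with 1 symbol, and *Etv1* and *Heatr5a* had 2 probesets each. Whole lung was taken from 9 naive and untreated mice, 3 of each strain, and each mouse gave 1 array. C57BL/6J is the hyporesponsive inbred strain and carries its own DNA throughout. CSS12 (C57BL/6J-Chr12A/J/NaJ) is a consomic strain in which Chromosome 12 comes from the hyperresponsive A/J strain and the rest from C57BL/6J. BcA86 is a recombinant congenic strain, mostly C57BL/6J, whose A/J segment on Chromosome 12 begins shortly before the interval and runs to the chromosome's end, with further A/J segments on other chromosomes. Over the interval CSS12 and BcA86 thus carry the same A/J DNA as far as the study's genotyping shows, and C57BL/6J does not. No A/J mice were among the arrays, the animals shared 1 age range in the study's methods, and the sex of the mouse behind each array is not given in the sources used here.

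A gene inside such a segment can differ between strains through its own DNA, which is called a cis effect, or through genes elsewhere, and both A/J-carrying strains share the first but only part of the second. The interval holds genes of very different work in lung: a histone deacetylase that represses muscle and vessel genes (*Hdac9*), the aryl hydrocarbon receptor that senses pollutants and tryptophan products (*Ahr*), neuronal surface proteins (*Nrcam*, *Lrrn3*), kinases and regulators of small GTPases, and proteins of membrane traffic and metabolism. All values are log2 expression values normalized by the robust multiarray average method (RMA), so a difference of 1 is a doubling. All 9 arrays entered 1 limma model with a mean for each strain. A probeset passed where its p, corrected after Benjamini and Hochberg for the 41345 probesets tested, was under 0.05. Differences are given as the A/J-carrying strain minus C57BL/6J. The comparisons with C57BL/6J share its 3 mice, so BcA86 and CSS12 are set side by side and not counted as independent.

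Of the 40 probesets, 2 passed for the mean of BcA86 and CSS12 against C57BL/6J, where 0.302% of all probesets passed. *Nrcam* was higher and *Dtd2* was lower. In whole lung, more or fewer cells of a type and more or less RNA per cell cannot be told apart. The same genes passed in BcA86 alone, where 0.375% of all probesets passed, and in CSS12 alone, where 0.220% did. Between CSS12 and BcA86 none of the 40 passed with limma, against 0.716% of all probesets. At an unadjusted p under 0.05 there were 11 probesets of the interval for the mean of both strains (4 higher and 7 lower, background 9.70%), 10 in BcA86 (background 10.4%), 10 in CSS12 (background 10.7%) and 6 between the A/J-carrying strains (background 11.9%). The difference was under 0.25 on the log2 scale in both strains for 33 of the 40, and the other 7 belonged to *Hdac9*, *Prps1l1*, *Etv1*, *Scin*, *Lrrn3*, *Nrcam* and *Dtd2*. In 6 of the 40 probesets, or 15.0%, all 6 mice with A/J DNA lay on 1 side of the 3 C57BL/6J mice, against 4.89% of all probesets. These were *Nrcam* and *Stxbp6* on the higher side and *Dtd2*, *Hdac9*, *Lrrn3* and *Lrrc72* on the lower side.

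**Figure D1:**
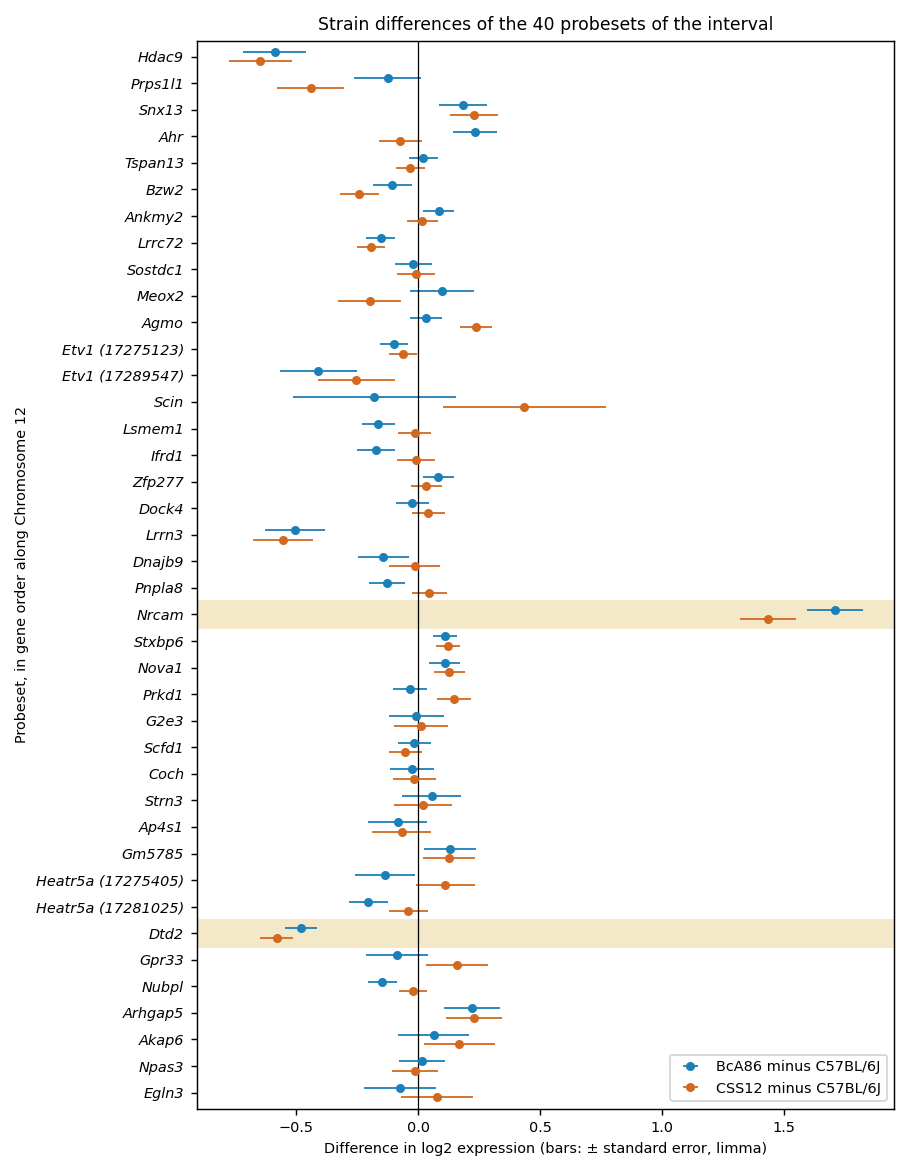
Difference in log2 expression of BcA86 (blue) and CSS12 (orange) from C57BL/6J for the 40 probesets, in gene order along Chromosome 12, with bars of 1 standard error from limma. Shaded rows passed at an adjusted p under 0.05: *Nrcam* stood at 1.71 and 1.43 and *Dtd2* at −0.48 and −0.58, while 33 probesets lay within 0.25 of 0 in both strains.

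*Nrcam* encodes the neuronal cell adhesion molecule, an L1 family protein of the immunoglobulin superfamily that holds axons and glia together and binds ankyrins and contactins. The 3 C57BL/6J mice had log2 values of 6.87, 7.0 and 6.65. The BcA86 mice had 8.46, 8.53 and 8.65, and the CSS12 mice 8.18, 8.46 and 8.19. The lowest A/J-carrying mouse thus lay more than 1 unit above the highest C57BL/6J mouse, with no overlap. The mean was 6.84 ± 0.18 (SD, n = 3) in C57BL/6J, 8.55 ± 0.10 for BcA86 and 8.27 ± 0.16 for CSS12. The mean difference of both strains was 1.57 (standard error 0.099, adjusted p = 0.0018), which is 2.97-fold, and it ranked at place 5 of all 41345 probesets by p. The BcA86 mice exceeded C57BL/6J by 1.71 (standard error 0.12, adjusted p = 0.00121) and the CSS12 mice by 1.43 (standard error 0.12, adjusted p = 0.00767). CSS12 minus BcA86 was −0.27 (95% confidence interval −0.54 to −0.01, adjusted p = 0.402). With CSS12 and C57BL/6J fitted without the BcA86 arrays, the adjusted p for CSS12 was 0.083.

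The promoter of *Nrcam*, given because this is the member with the largest difference, is that of the C57BL/6J reference in RefSeq (GRCm38.p6, chr12:44328635-44328934, plus strand), from 250 bases before the start of transcription to 50 after it. Capitals mark matches to 4 motifs searched on both strands, which are GGGCGG (or CCGCCC, the GC box), GCGTG (or CACGC, the core of the xenobiotic response element), TATAAA (or TTTATA, the TATA box) and TGCGCA (the core of the NRF1 site, the same on both strands).
Nrcam promoter: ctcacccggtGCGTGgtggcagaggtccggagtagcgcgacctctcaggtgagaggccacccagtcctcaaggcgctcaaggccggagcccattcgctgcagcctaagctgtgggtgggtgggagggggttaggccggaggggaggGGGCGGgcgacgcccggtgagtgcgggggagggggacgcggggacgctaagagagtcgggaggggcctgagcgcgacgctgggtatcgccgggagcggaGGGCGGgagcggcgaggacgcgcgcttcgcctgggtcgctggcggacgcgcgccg
It held 2 GC boxes and 1 GCGTG core that do not overlap, no TATA box, and 37 CpG dinucleotides in 300 bases. Of the 38 member genes 34 had promoters in the RefSeq table, 37 promoters in all, and *Ahr*, *Lrrn3*, *Prps1l1* and *Sostdc1* had none there. A GC box stood in 17 of the 37 and in 35.7% of all 32851 promoters, a GCGTG core in 13 of the 37 and in 32.4% of all, a TATA box in 5 of the 37 and in 13.6% of all, and an NRF1 core in 1 of the 37 and in 7.76% of all. These are matches of letters and no test of binding, and the A/J sequence was not analysed here.

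In order along the chromosome, *Nrcam* lies between *Pnpla8* and *Stxbp6* among the genes measured. *Pnpla8* encodes a calcium-independent phospholipase of mitochondria and peroxisomes, and its values ran from 7.95 to 8.20 in C57BL/6J, from 7.92 to 7.97 in BcA86 and from 8.06 to 8.17 in CSS12. Its difference was −0.13 in BcA86 and 0.05 in CSS12, neither past the threshold. *Stxbp6*, whose product amisyn binds the SNARE proteins of vesicle fusion, had 8.81, 8.82 and 8.79 in C57BL/6J, 8.92, 8.92 and 8.90 in BcA86, and 8.94, 8.94 and 8.90 in CSS12. The groups did not overlap, but the difference was small, at 0.12 for the mean of both strains (standard error 0.042, adjusted p = 0.436). *Nova1*, a splicing regulator of neurons and the next gene, had 0.11 in BcA86 and 0.13 in CSS12 (adjusted p = 0.537 for their mean).

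The other genes of the *Nrcam* family and its binding partners did not pass with limma in any comparison. All 9 genes of a list of L1 family molecules and partners were measured (*L1cam*, *Nfasc*, *Chl1*, *Cntn1*, *Cntn2*, *Ank2*, *Ank3*, *Nrp2* and *Gldn*), and their median difference for the mean of both strains was 0.02, against 0.00 over all probesets. *Ank3*, which encodes the ankyrin that anchors L1 family proteins, had 0.22 (adjusted p = 0.38), and *Nrp2*, a semaphorin receptor, had −0.15 (adjusted p = 0.61). *L1cam*, the founding member of the family, had −0.14 in BcA86 and 0.23 in CSS12, and its 0.37 in CSS12 minus BcA86 passed with Cyber-T (adjusted p = 0.0368) and not with limma (adjusted p = 0.103). Of 4 markers of Schwann cells and nerve, *Mbp* and *Sox10* were measured, and their mean lay from 6.23 to 6.42 in C57BL/6J, from 6.29 to 6.44 in BcA86 and from 6.39 to 6.49 in CSS12. Their differences were −0.02 and 0.15 for the mean of both strains, against 1.57 for *Nrcam*.

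*Dtd2* encodes a D-aminoacyl-tRNA deacylase, an enzyme of translational proofreading that removes wrongly attached amino acids from tRNA. Its values were 9.51, 9.41 and 9.42 in C57BL/6J, 8.87, 8.97 and 9.07 in BcA86, and 8.87, 8.86 and 8.89 in CSS12. Every mouse with A/J DNA lay below every C57BL/6J mouse, and BcA86 and CSS12 overlapped. The mean fell from 9.45 ± 0.06 (SD, n = 3) in C57BL/6J to 8.97 ± 0.10 in BcA86 and 8.87 ± 0.02 in CSS12. The mean difference of both strains was −0.53 (standard error 0.057, adjusted p = 0.0142), or 1.44-fold lower, and it stood at place 40 of all 41345 probesets by p. In BcA86 the difference was −0.48 (standard error 0.066, adjusted p = 0.0314) and in CSS12 −0.58 (standard error 0.066, adjusted p = 0.0189). CSS12 minus BcA86 was −0.10 (95% confidence interval −0.25 to 0.05). This call was less firm than that of *Nrcam*: the adjusted p for the mean of both strains ran from 0.028 to 0.0629 with each array left out in turn, and passed in 4 of those 9 fits, while *Nrcam* passed in all 9. It was over 0.05 without any of the 3 C57BL/6J arrays, without CSS12 replicate 3 and without BcA86 replicate 2. For BcA86 alone *Dtd2* passed in none of those 9 fits (adjusted p from 0.0502 to 0.13). For CSS12 alone it passed in 2 of them (0.031 to 0.0984).

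The promoter of *Dtd2*, shown as that of the other member that passed, is again the C57BL/6J reference (GRCm38.p6, chr12:52006458-52006757, minus strand, written in the direction of transcription), with the same motifs in capitals.
Dtd2 promoter: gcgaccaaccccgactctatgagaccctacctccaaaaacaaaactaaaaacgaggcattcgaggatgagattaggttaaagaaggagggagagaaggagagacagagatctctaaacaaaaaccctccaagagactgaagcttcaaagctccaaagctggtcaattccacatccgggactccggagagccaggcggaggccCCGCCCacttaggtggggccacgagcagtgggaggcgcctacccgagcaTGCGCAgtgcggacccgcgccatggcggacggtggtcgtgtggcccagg
It held 1 GC box, read on the opposite strand, and 1 NRF1 core, with no GCGTG core and no TATA box, and had 18 CpG dinucleotides against a median of 16 over the 37 member promoters and 7 over all promoters. It was the only member promoter in the table with an NRF1 core. The genes measured on either side of *Dtd2* are *Heatr5a*, a HEAT repeat protein of endosomal traffic, and *Gpr33*, an orphan receptor related to chemoattractant receptors. The 2 *Heatr5a* probesets had −0.01 and −0.12 for the mean of both strains (adjusted p = 0.985 and 0.63), and *Gpr33* had 0.04 (adjusted p = 0.947). The *Heatr5a* probeset 17281025 had 9.12, 9.10 and 9.07 in BcA86, below the 9.24, 9.47 and 9.19 of C57BL/6J, whereas in CSS12 it had 9.22, 9.29 and 9.27, among them. *Bzw2*, which competes with initiation factors in translation, was the other member that acts in protein synthesis, with −0.11 in BcA86 and −0.24 in CSS12 (adjusted p = 0.469 for their mean).

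**Figure D2:**
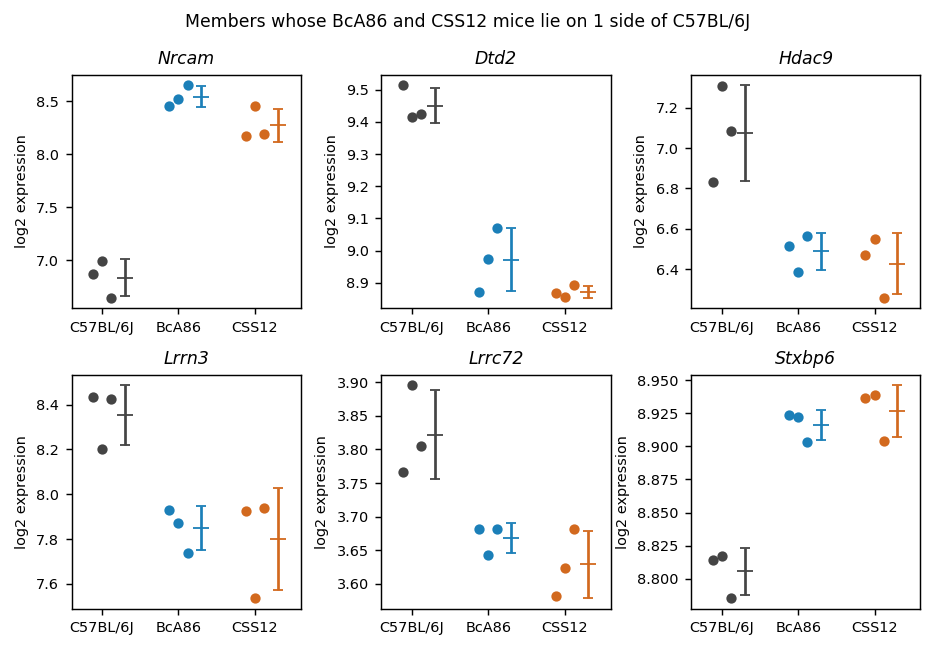
Log2 expression of the 6 members in which all BcA86 and CSS12 mice lay on 1 side of C57BL/6J, with 1 point per mouse and the strain mean with a bar of 1 SD beside it (each panel has its own axis). *Nrcam* rose from 6.84 to 8.55 and 8.27 and *Dtd2* fell from 9.45 to 8.97 and 8.87, whereas the mean difference of *Stxbp6* was 0.12 and that of *Lrrc72* −0.17.

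*Hdac9* and *Lrrn3* came next, lower in every mouse with A/J DNA but past the threshold in none of the comparisons with limma. *Hdac9* encodes a class IIa histone deacetylase, which holds the MEF2 transcription factors in check. It had 6.83, 7.31 and 7.09 in C57BL/6J, 6.51, 6.39 and 6.56 in BcA86, and 6.47, 6.55 and 6.26 in CSS12. The C57BL/6J mice lay above all others and were more spread, with an SD of 0.24 against 0.09 and 0.15. The mean difference was −0.62 (standard error 0.11, adjusted p = 0.0921), with −0.59 in BcA86 and −0.65 in CSS12. *Hdac9* passed where the dimmer probesets were left out (adjusted p = 0.0369) and where only probesets with 1 symbol were tested (adjusted p = 0.0448). In both, fewer probesets were tested, and its standard error also changed, from 0.112 to 0.108 and 0.107. The part of each in this was not tested. With the methods' Cyber-T test, which borrows variance from probesets of like intensity, *Hdac9* and *Lrrn3* passed beside *Nrcam* and *Dtd2* in each of the 3 comparisons with C57BL/6J. That made 4 of 40, where Cyber-T passed 1.08% of all probesets for the mean of both strains, 2.45% for BcA86 and 2.61% for CSS12. For the mean of both strains, Cyber-T pooled the BcA86 and CSS12 arrays as 1 group. Differences between these strains thus entered its variance, whereas limma kept a mean for each strain.

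*Lrrn3* encodes a leucine-rich repeat protein of the neuronal surface and lies within the span of *Immp2l* in the gene table, a gene with no probeset of 1 symbol. Its values were 8.43, 8.20 and 8.42 in C57BL/6J, 7.93, 7.87 and 7.74 in BcA86, and 7.92, 7.54 and 7.94 in CSS12. There was no overlap with C57BL/6J, and the A/J-carrying strains overlapped with each other. The mean difference was −0.53 (standard error 0.11, adjusted p = 0.13), with −0.51 in BcA86 and −0.55 in CSS12. CSS12 minus BcA86 was −0.05 for *Lrrn3* (95% confidence interval −0.33 to 0.24) and −0.06 for *Hdac9* (−0.36 to 0.24).

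Genes that act with *Hdac9* did not pass with limma. Of a list of 10 other class IIa deacetylases, their partners and MEF2 factors, 7 were measured. Their median difference for the mean of both strains was 0.02. At an unadjusted p under 0.05 in that comparison, 2 of the 7 were lower, against 9.70% of all probesets higher or lower. *Mef2d* had −0.19 (adjusted p = 0.26) and *Mef2c* −0.17 (adjusted p = 0.28). *Hdac4* had −0.10 in BcA86 and 0.14 in CSS12 (adjusted p between them 0.172 with limma and 0.0479 with Cyber-T), *Hdac5* 0.07 and 0.08, and *Hdac7* −0.15 and −0.04. The other member at the proximal edge, *Prps1l1*, related to the enzyme that makes phosphoribosyl pyrophosphate, had −0.12 in BcA86 and −0.44 in CSS12 (adjusted p = 0.792 and 0.324). *Snx13*, a sorting nexin with a domain that regulates G proteins, had 9.66, 9.96 and 10.06 in C57BL/6J against 10.06 to 10.09 in BcA86 and 10.09 to 10.16 in CSS12. Its mean difference was 0.21 (adjusted p = 0.494), and its lowest value came from C57BL/6J replicate 1. Over the 40 probesets, replicate 1 was the lowest of its strain in 22 for C57BL/6J, 20 for CSS12 and 19 for BcA86. The same count was not made over all probesets, and its part in the difference of *Snx13* was not tested.

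*Ahr* encodes the aryl hydrocarbon receptor, a ligand-activated transcription factor that pairs with ARNT and switches on enzymes such as CYP1A1. It had 9.77, 9.66 and 9.67 in C57BL/6J, 9.76, 9.95 and 10.10 in BcA86, and 9.61, 9.60 and 9.68 in CSS12. All BcA86 mice lay above all CSS12 mice, and both strains overlapped with C57BL/6J. The difference was 0.23 in BcA86 (standard error 0.089, adjusted p = 0.425) and −0.07 in CSS12 (adjusted p = 0.815). CSS12 minus BcA86 was −0.31 (95% confidence interval −0.51 to −0.10), with an adjusted p of 0.193 with limma and 0.013 with Cyber-T, which passed *Ahr* and *Meox2* among the 40 and 5.26% of all probesets in this comparison. By p in limma, *Ahr* was the lowest of the 40 in that comparison.

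Of 22 genes listed as targets of the receptor, 17 were measured, and none passed with limma for the mean of both strains or for either strain against C57BL/6J. With Cyber-T, 2 of the 17 were lower for the mean of both strains, 4 in BcA86 and 1 in CSS12. Over all probesets Cyber-T passed 1.08%, 2.45% and 2.61% in these comparisons. The median difference of the 17 for the mean of both strains was −0.03. At an unadjusted p under 0.05 with limma, 1 was higher and 3 were lower in that comparison, against 9.70% of all probesets. *Cyp1a1*, the classical target, encodes a monooxygenase of polycyclic hydrocarbons. It had 8.58, 10.09 and 8.91 in C57BL/6J, 7.24, 7.25 and 6.98 in BcA86, and 7.88, 7.70 and 8.17 in CSS12, so that the 3 strains did not overlap. Its difference was −2.04 in BcA86 (standard error 0.35, adjusted p = 0.072) and −1.27 in CSS12 (standard error 0.35, adjusted p = 0.27), and the C57BL/6J mice spread widely, with an SD of 0.80. With Cyber-T *Cyp1a1* passed in both (adjusted p = 4.67e-06 and 0.00233) and between the A/J-carrying strains (0.76, adjusted p = 0.000247, against 0.443 with limma). *Nfe2l2*, the regulator of antioxidant genes, had −0.25 for the mean of both strains (adjusted p = 0.21 with limma and 0.0496 with Cyber-T). *Gsta4*, a glutathione transferase, had −0.39 in BcA86 (adjusted p = 0.348 with limma and 0.0286 with Cyber-T). For the mean of both strains *Nqo1* had −0.39, *Cyp1b1* 0.25, *Tiparp* 0.01 and *Ahrr*, the receptor's repressor, 0.04. None of these passed with either test.

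*Slc7a5*, a transporter of large neutral amino acids that is also on the target list, passed between the A/J-carrying strains with both tests. It had 8.54, 8.42 and 8.56 in BcA86 and 9.34, 9.47 and 9.17 in CSS12, and C57BL/6J, at 9.16, 9.18 and 8.71, lay above BcA86 and overlapped with CSS12. CSS12 minus BcA86 was 0.82 (standard error 0.14, adjusted p = 0.045). Among 14 partners and regulators of the receptor 12 were measured and none passed with either test. *Rb1*, the retinoblastoma protein, had 0.26 for the mean of both strains (adjusted p = 0.095 with limma). *Hsp90aa1*, a chaperone of the receptor, had −0.25 in that comparison (adjusted p = 0.31 with limma). It lies on Chromosome 12 beyond the interval, where both strains carry A/J DNA. *Arnt* itself had −0.05 in BcA86 and 0.03 in CSS12.

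**Figure D3:**
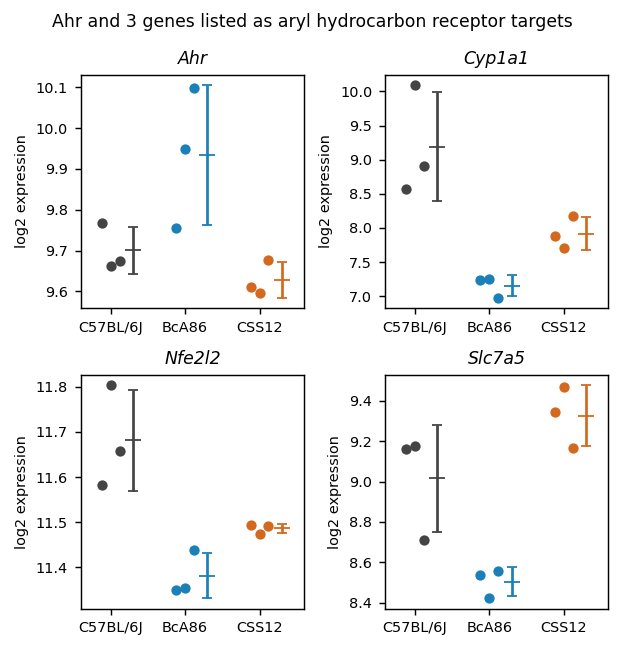
Log2 expression by mouse of *Ahr* and of *Cyp1a1*, *Nfe2l2* and *Slc7a5* from the list of aryl hydrocarbon receptor targets, with the strain mean and a bar of 1 SD (each panel has its own axis). *Cyp1a1* was lower in BcA86 (mean 7.16) and CSS12 (mean 7.92) than in C57BL/6J (mean 9.19) in every mouse, while *Ahr* had means of 9.93, 9.63 and 9.70 in that order of strains.

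The other transcription regulators of the interval did not pass. *Etv1*, an ETS family factor, had probesets that gave unequal differences: 17289547 had 8.30, 8.34 and 8.53 in C57BL/6J, 8.16, 8.02 and 7.76 in BcA86, and 7.81, 8.27 and 8.32 in CSS12, and 17275123 ran from 6.17 to 6.36 over all mice. The mean difference was −0.33 for 17289547 (standard error 0.14, adjusted p = 0.49) and −0.08 for 17275123 (standard error 0.049, adjusted p = 0.654). Probesets were placed by gene symbol, so whether 17289547 matches the *Etv1* locus in the interval was not tested. *Meox2*, a homeobox gene of mesoderm and vessels, had 10.15, 10.19 and 10.23 in BcA86 and 9.95, 9.72 and 10.02 in CSS12, without overlap between the A/J-carrying strains, while C57BL/6J spread from 9.85 to 10.35. CSS12 minus BcA86 was −0.30 for *Meox2*, with an adjusted p of 0.429 with limma and 0.019 with Cyber-T. *Ifrd1*, a transcriptional coregulator, had −0.17 in BcA86 and −0.01 in CSS12. *Zfp277*, a zinc finger protein, had 0.08 and 0.03. *Npas3*, a basic helix-loop-helix factor of neurons, gave 4.63 in all 3 BcA86 mice and 4.39 to 4.79 in the others, and was among the 3 members with the lowest values.

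None of the signalling genes of the interval passed. *Arhgap5*, an inactivator of small GTPases, had 8.75, 9.03 and 9.13 in C57BL/6J, 9.04, 9.29 and 9.23 in BcA86, and 9.08, 9.29 and 9.23 in CSS12. The strains overlapped, and the mean difference was 0.23 (standard error 0.10, adjusted p = 0.523). *Prkd1*, protein kinase D, which acts below diacylglycerol, had −0.03 in BcA86 and 0.15 in CSS12, and CSS12 minus BcA86 was 0.18 (95% confidence interval 0.02 to 0.34, adjusted p = 0.357). Of 10 protein kinase D and diacylglycerol kinase genes elsewhere, 9 were measured. *Dgkh*, a diacylglycerol kinase, passed in CSS12 against BcA86, at 0.45 (adjusted p = 0.042), and none passed against C57BL/6J with limma. With Cyber-T *Dgkh* also passed in CSS12 against C57BL/6J (0.41, adjusted p = 0.0064) and *Dgkd* between the A/J-carrying strains (0.27, adjusted p = 0.0265). *Akap6*, an anchor of protein kinase A, had 0.12 for the mean of both strains (adjusted p = 0.816). *Dock4*, an activator of Rac, *Strn3*, a subunit of a phosphatase complex, and *Sostdc1*, an antagonist of BMP and Wnt ligands, had 0.01, 0.04 and −0.01.

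*Egln3*, a prolyl hydroxylase that marks hypoxia-inducible factors for destruction, lies at the distal edge and had −0.07 in BcA86 and 0.08 in CSS12. Of 19 hydroxylases, hypoxia-inducible factors and their targets, 18 were measured and none passed with limma, with a median of 0.00 for the mean of both strains and 0.07 for CSS12 minus BcA86. In the latter comparison *Ndrg1*, a stress-induced gene, had 0.34 and *Ddit4*, an inhibitor of mTOR signalling, had 0.43, past the threshold with Cyber-T (adjusted p = 0.00163 and 0.00491) and not with limma (0.0678 and 0.0994). *Adm*, of the same list, went the other way, at −0.35 (adjusted p = 0.107 with limma and 0.131 with Cyber-T). At an unadjusted p under 0.05 with limma, 3 of the 18 were higher in CSS12 than in BcA86 and 1 was lower, against 11.9% of all probesets. For the mean of both strains, *Bnip3*, a mitophagy gene, had 0.17 (adjusted p = 0.45 with limma). In the same comparison *P4ha1*, a collagen prolyl hydroxylase, had −0.26 (adjusted p = 0.61 with limma).

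Among genes of membrane traffic and protein folding, *Dnajb9*, a cochaperone of the endoplasmic reticulum, had −0.14 in BcA86 and −0.01 in CSS12. Of 15 further genes of the unfolded protein response 14 were measured and none passed with limma, with a median of −0.03 for the mean of both strains. *Herpud1* had −0.43 in BcA86 and 0.03 in CSS12 (adjusted p = 0.15 and 0.95 with limma). It passed with Cyber-T in BcA86 (adjusted p = 0.007) and in CSS12 minus BcA86, where it had 0.46 (adjusted p = 0.000189, against 0.0718 with limma) and *Creld2* had 0.23 (0.0419, against 0.343). *Hspa5*, the chaperone that *Dnajb9* serves, had −0.28 in BcA86 and −0.10 in CSS12 against C57BL/6J. *Tspan13*, a tetraspanin, ran from 11.25 to 11.40 over all 9 mice with a mean difference of −0.01. *Scfd1*, of transport between endoplasmic reticulum and Golgi, had −0.03, and *Ap4s1*, the small subunit of an adaptor complex, had −0.07 (*Ap4s1* and *Strn3* overlap in the gene table). *Tspan13*, *Dnajb9* and *Meox2* gave the highest values of the interval in C57BL/6J (11.36, 10.71 and 10.09) and *Lrrc72*, *Npas3* and *Lsmem1* the lowest (3.82, 4.62 and 5.04), although the brightness of different probesets does not measure relative amounts of transcript.

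Of the metabolic genes, *Agmo*, which cleaves ether lipids, had its highest values in CSS12. It had 8.69, 8.83 and 8.76 in C57BL/6J, 8.81, 8.79 and 8.80 in BcA86, and 9.05, 8.90 and 9.06 in CSS12. Every CSS12 mouse lay above every mouse of the other strains. The difference was 0.24 in CSS12 (standard error 0.066, adjusted p = 0.276) and 0.03 in BcA86, and CSS12 minus BcA86 was 0.21 (95% confidence interval 0.05 to 0.36, adjusted p = 0.243). *Nubpl*, an assembly factor of mitochondrial complex I, had −0.15 in BcA86 and −0.02 in CSS12 (adjusted p = 0.442 and 0.925).

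*Lrrc72*, a leucine-rich repeat gene, had 3.77, 3.90 and 3.80 in C57BL/6J and 3.58 to 3.68 in the other 6 mice. Although the groups did not overlap, the mean difference was −0.17 (standard error 0.051, adjusted p = 0.307), at values among the lowest of the interval. *Ankmy2* had 0.05, *Lsmem1* −0.09 and the predicted gene *Gm5785* 0.13 for the mean of both strains, none past the threshold. *Scin*, which severs actin filaments, had 6.65 in CSS12 replicate 2 and 4.94 to 5.41 in the other 8 mice, and its difference in CSS12 of 0.43 had a standard error of 0.33. *Coch*, a protein of the extracellular matrix, and *G2e3*, a ubiquitin ligase, had −0.02 and 0.00 for the mean of both strains. Over the 13 members outside the 25 genes with the smallest p, differences for the mean of both strains ran from −0.05 to 0.13, and the lowest adjusted p was 0.882.

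**Figure D4:**
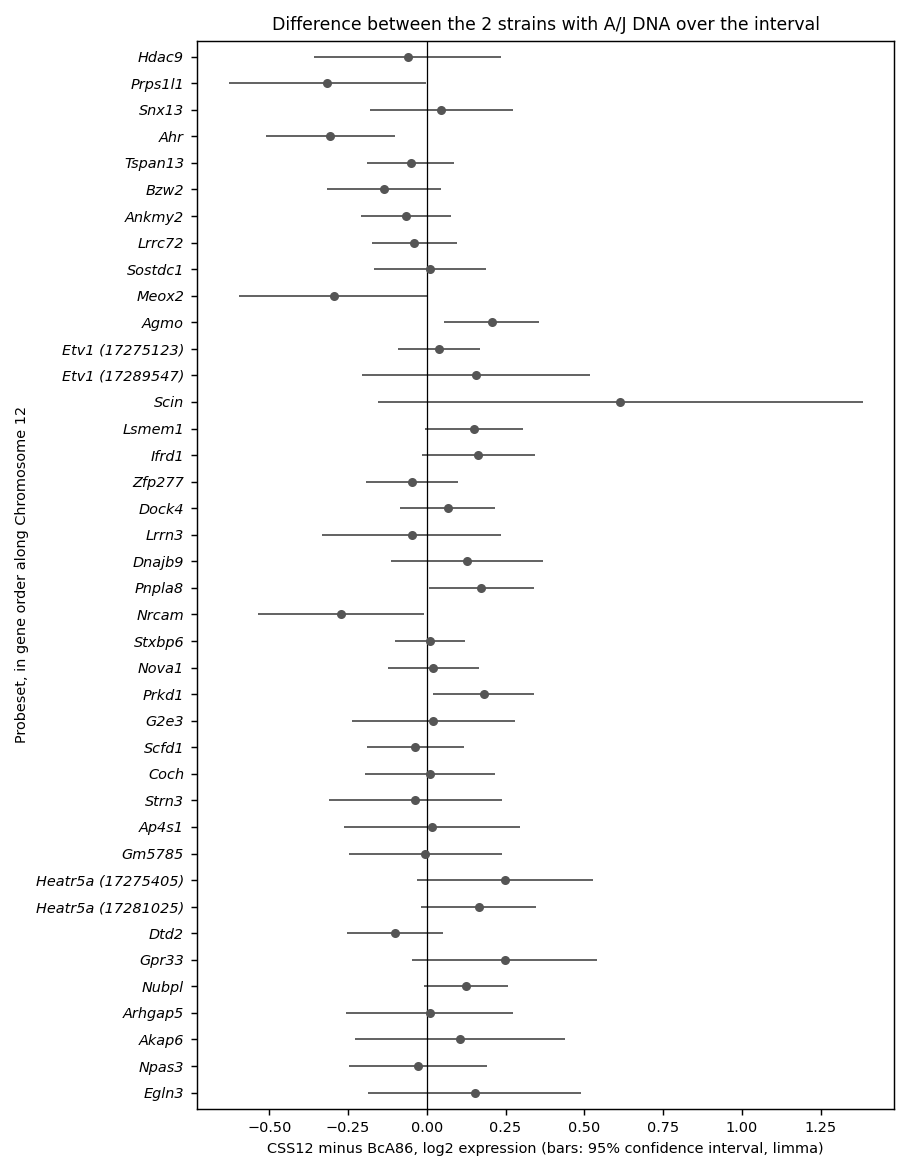
CSS12 minus BcA86 in log2 expression for the 40 probesets, in gene order along Chromosome 12, with 95% confidence intervals from limma. None passed at an adjusted p under 0.05; *Ahr* stood at −0.31 and *Agmo* at 0.21, and *Scin* had the widest interval.

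The A/J-carrying strains were compared with each other because their DNA over the interval has the same origin. None of the 40 differences passed with limma, against 0.716% of all probesets. In limma 6 of the 40, or 15.0%, were under an unadjusted p of 0.05, near the 11.9% of all probesets. Of these *Ahr*, *Nrcam* and *Prps1l1* were lower in CSS12, and *Agmo*, *Prkd1* and *Pnpla8* were higher. The 95% confidence interval lay wholly within 0.5 on the log2 scale of 0 for 32 of the 40, with a median width to either side of 0.21. The intervals of the other 8 reached beyond it, those of *Ahr*, *Nrcam*, *Meox2*, *Prps1l1*, *Etv1*, *Scin*, *Gpr33* and *Heatr5a*. The share of all probesets with an interval within 0.5 was not computed. Markers of immune cells moved in the same comparison. The mean of 4 neutrophil markers lay from 6.13 to 6.83 in CSS12, against 7.96 to 8.21 in BcA86 and 7.40 to 8.62 in C57BL/6J, and the mean of 3 B cell markers from 7.29 to 7.91, against 8.25 to 8.71 and 7.99 to 8.67. No marker of either list passed with limma. With Cyber-T, all 4 neutrophil and 2 of the 3 B cell markers were lower in CSS12 than in BcA86, where 5.26% of all probesets passed. Macrophage markers ran the other way, with a mean of 4 from 8.83 to 9.19 in CSS12, above every mouse of BcA86 (8.47 to 8.76) and of C57BL/6J (8.68 to 8.70). Of these, *Mrc1* had 0.43 in CSS12 minus BcA86 (adjusted p = 0.229 with limma and 0.0057 with Cyber-T). Their part in the differences of *Ahr* or *Agmo* was not tested.

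Markers of lung were high in all 9 mice, with means of 12.34 to 12.50 for 5 alveolar type 2 genes and 11.97 to 12.24 for 3 club cell genes, and 3 thymus genes gave 4.96 to 5.18. The 4 fibroblast genes had a median difference of 0.25 for the mean of both strains, their mean was higher in every mouse with A/J DNA (10.01 to 10.28) than in every C57BL/6J mouse, and 1 of them, *Pdgfra*, passed for the mean of both strains and in BcA86. The mean of 4 endothelial genes lay from 11.16 to 11.35 in C57BL/6J, from 11.36 to 11.45 in BcA86 and from 11.33 to 11.35 in CSS12. The mean of 4 alveolar type 1 genes was lower in every mouse with A/J DNA (11.15 to 11.25) than in every C57BL/6J mouse (11.27 to 11.33), with a median difference of −0.07. The part of these shifts in the members' differences was not tested. No marker of alveolar type 1, ciliated, smooth muscle, macrophage, T or cardiac muscle cells passed with limma in any of the 4 comparisons. *Acta2*, of smooth muscle, had −0.29 in CSS12 minus BcA86 and passed with Cyber-T (adjusted p = 0.00894). None of 4 erythroid markers had a probeset with 1 symbol.

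The rest of Chromosome 12 gives the surroundings of these counts. For the mean of both strains, 5.0% of the 40 probesets passed, against 1.53% of 131 before the interval, where CSS12 carries A/J DNA throughout and BcA86 only next to the interval, 1.39% of 433 beyond it, where both strains do, and 0.332% of 19576 for protein-coding genes of other chromosomes. With 2 passing probesets, the share in the interval rests on *Nrcam* and *Dtd2* and was not tested against the others. The median size of the difference, sign left aside, was 0.083 in the interval, 0.072 before it, 0.079 beyond it and 0.069 on other chromosomes. In BcA86 it was 0.110 in the interval and 0.078 on other chromosomes, and in CSS12 0.095 and 0.079. At an unadjusted p under 0.05 for the mean of both strains stood 27.5% of the probesets of the interval, 16.8% before it, 16.2% beyond it and 10.5% on other chromosomes, and these shares were not tested against each other. Between CSS12 and BcA86, 5 of the 131 probesets before the interval passed (3.82%), 2 of the 433 beyond it (0.462%) and none of the 40 within it. In this comparison 0.716% of all probesets passed and 0.516% of those for protein-coding genes of other chromosomes, and the shares were not tested against each other.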

How the data were processed

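Lungs of 3 mice per strain were measured on Affymetrix Gene 2.0 ST arrays, and the labels state that all RNA was extracted together. The deposited log2 values were made by the authors from raw intensities with RMA in FlexArray, 1 value for each probeset on each array. Neither the version of FlexArray nor the build behind the probes is given in the sources used here. Values were used without further normalization or filter. Single probes were not analysed here, so whether sequence differences of A/J under the probes enter the values was not tested. Gene symbols came from the platform's annotation, and positions and promoters from RefSeq (GRCm38.p6). Strain means were fitted with limma 3.58.1 under R 4.3.3, without a block, to the 9 arrays together, and p was adjusted by Benjamini-Hochberg over 41345 probesets. The p-values measure the spread between 3 mice per strain, and that number limits the precision.

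The members and gene lists were chosen with earlier results of these data known. Named are members past the threshold, further members by p up to 25 genes, the 3 members of highest and lowest level in C57BL/6J, *Hdac9*, *Ahr*, *Lrrn3* and *Nrcam*, and, of each list, the genes that passed or the 2 with the smallest p. Other genes were named after their values were seen. Lists and markers used 1 probeset per gene, the one of highest mean. Alternatives were Cyber-T (window of 101 probesets, prior weight 10), trended and robust variances, only the compared arrays, the replicate number as a block, dimmer probesets left out, only probesets with 1 symbol, arrays centred on their medians, array weights, and each array left out. For the mean of both strains, Cyber-T and the fit of only the compared arrays pooled BcA86 and CSS12 as 1 group. The code was tested on simulated data.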

Additional observations from a re-analysis of the deposited data

How the results depend on the processing

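The count of 2 passing members against C57BL/6J, for the mean of both strains and for each strain, was also 2 with trended and robust variances, with arrays centred and with array weights. With Cyber-T it was 4, 4 and 4 for the mean, BcA86 and CSS12, and 2 between CSS12 and BcA86, where limma gave 0 under every alternative. With only the compared arrays it was 1 in BcA86 and 0 in CSS12. When replicate numbers formed a block, the count was 1 in each, as *Dtd2* had adjusted p of 0.0727, 0.112 and 0.085; the labels number the mice 1 to 3 in each strain, but the deviations of same-numbered mice correlated from −0.107 to 0.147 over 9 pairs, not over 0.1 in every pair, so the numbers were not taken to pair them. With each array left out, 1 to 2 members passed for the mean, 1 in BcA86, 1 to 2 in CSS12 and 0 between the strains. *Nrcam* passed for the mean under all 17 alternatives and *Dtd2* under 11. The cause of these changes was not tested. Of the 40 differences for the mean of both strains, 15, none past the threshold, changed sign with some array left out, where they ran as follows: *Sostdc1* from −0.061 to 0.037, *Meox2* from −0.17 to 0.079, *G2e3* from −0.10 to 0.073, *Egln3* from −0.077 to 0.061, *Dock4* from −0.033 to 0.052, *Coch* from −0.059 to 0.030, *Npas3* from −0.046 to 0.055, *Strn3* from −0.085 to 0.15, *Heatr5a* probeset 17275405 from −0.15 to 0.056, *Pnpla8* from −0.10 to 0.024, *Ap4s1* from −0.20 to 0.036, *Tspan13* from −0.028 to 0.014, *Dnajb9* from −0.17 to 0.0065, *Gpr33* from −0.034 to 0.078 and *Scin* from −0.10 to 0.25. With array weights *Sostdc1* had 0.0040, *Meox2* 0.0055, *G2e3* −0.020 and *Egln3* −0.014, also of the other sign. With 3 mice per strain, the median standard error over the 40 probesets was 0.077 for the mean of both strains.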

Other observations

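Besides the protein-coding genes, 12 probesets with 1 symbol belong to other genes that start in the interval, 7 long non-coding RNAs, 3 microRNAs and 2 transcribed pseudogenes, and none passed in any comparison. Their differences for the mean of BcA86 and CSS12 ran from −0.28 to 0.36. The largest was that of *Gm7550* (adjusted p = 0.271), whose values were low on these arrays, from 3.32 to 3.66 in C57BL/6J. At an unadjusted p under 0.05 there was 1 of the 12 for the mean of both strains and 2 in CSS12. Over all probesets the shares were 9.70% and 10.7%.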
